A study of Saccharomyces cerevisiae with 18 samples.

Results

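The proteasome genes described here are 33 of the 6212 genes in the table. They were chosen by name, as the RPN and RPT subunits of the regulatory particle, the PRE and PUP subunits and SCL1 of the core particle, and RPN4, the regulator of their transcription. By role there were 8 lid subunits, 4 base subunits without ATPase activity, 6 base ATPases, 7 alpha and 7 beta subunits of the core, and RPN4. All 33 gene IDs were in the table, with 565 of 594 possible values, and 25 of the genes had a value on all 18 arrays.

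The proteasome is the main protease of the cytosol and nucleus. Its core is a barrel of alpha and beta rings with the proteolytic sites inside, and its regulatory particle, made of a base and a lid, binds ubiquitin-tagged proteins, removes the ubiquitin, unfolds the protein and threads it into the core. In budding yeast the transcription factor Rpn4 binds a shared promoter element of most proteasome genes and is itself a short-lived proteasome substrate, so that the genes are usually expressed in concert and according to demand.

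Wild-type cells of the laboratory strain BY4741 in a potassium-free medium, which held about 15 µM residual potassium, were compared with wild-type BY4741 cells in the same medium plus 50 mM KCl, at 5 times from 10 to 120 min (10, 20, 40, 60, then 120 min). There were 18 spotted arrays, each with RNA of both cultures in different dyes: 2 arrays at 10 min, from 1 experiment, and 4 at each later time point, from 2 experiments with a dye swap each. The series concerns a sudden shortage of external potassium, but the growth notes name the same medium for each culture before and after its wash, so how the cells had been grown before the shift is not settled by the labels. Values are log2 ratios of potassium-free over KCl cells. The log base and this direction are likely and not stated. A ratio on an array is relative to the other genes on it, and fewer cells or less messenger RNA per cell cannot be told apart from such a shift of all genes.

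Arrays held values for 3913 to 5372 genes, and their number limits the precision. The spread of the values over genes widened with time, from SDs of 0.384 to 0.555 on the arrays at 20 min to 1.06 to 1.30 at 60 min and 0.839 to 1.45 at 120 min. Genes with a value on at least 3 of 4 arrays of a time point, or on both at 10 min, were tested there by the moderated test of limma with Benjamini-Hochberg adjustment over all genes tested. The test used experiments A and B as replicates (n = 2 at each later time point, 1 at 10 min). Arrays 1 and 2 were taken as A and arrays 3 and 4 as B, which the labels do not say. The sample titles number each array of a time point as an experiment of its own. Counts with single arrays as replicates are given below as an alternative.

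At 60 min most proteasome genes were more abundant in the potassium-free cells. Of 30 genes tested, 19 were higher past the threshold and 2 were lower, SCL1 and PRE3. Of all 4127 genes tested, 21.7% were called higher and 25.1% lower. The median of the proteasome genes was 0.63 on the log2 scale, against -0.089 for all genes, and it was 0.51 in experiment A and 0.73 in experiment B. On every array with a value, 23 of the 30 lay above 0, while 30.8% of all genes did so. RPN5, RPT4, RPT1 and RPT3 passed 2-fold, 4 of the 30 genes, where 12.6% of all genes were 2-fold higher, and RPN5 was highest at 2.21-fold.

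**Figure D1:**
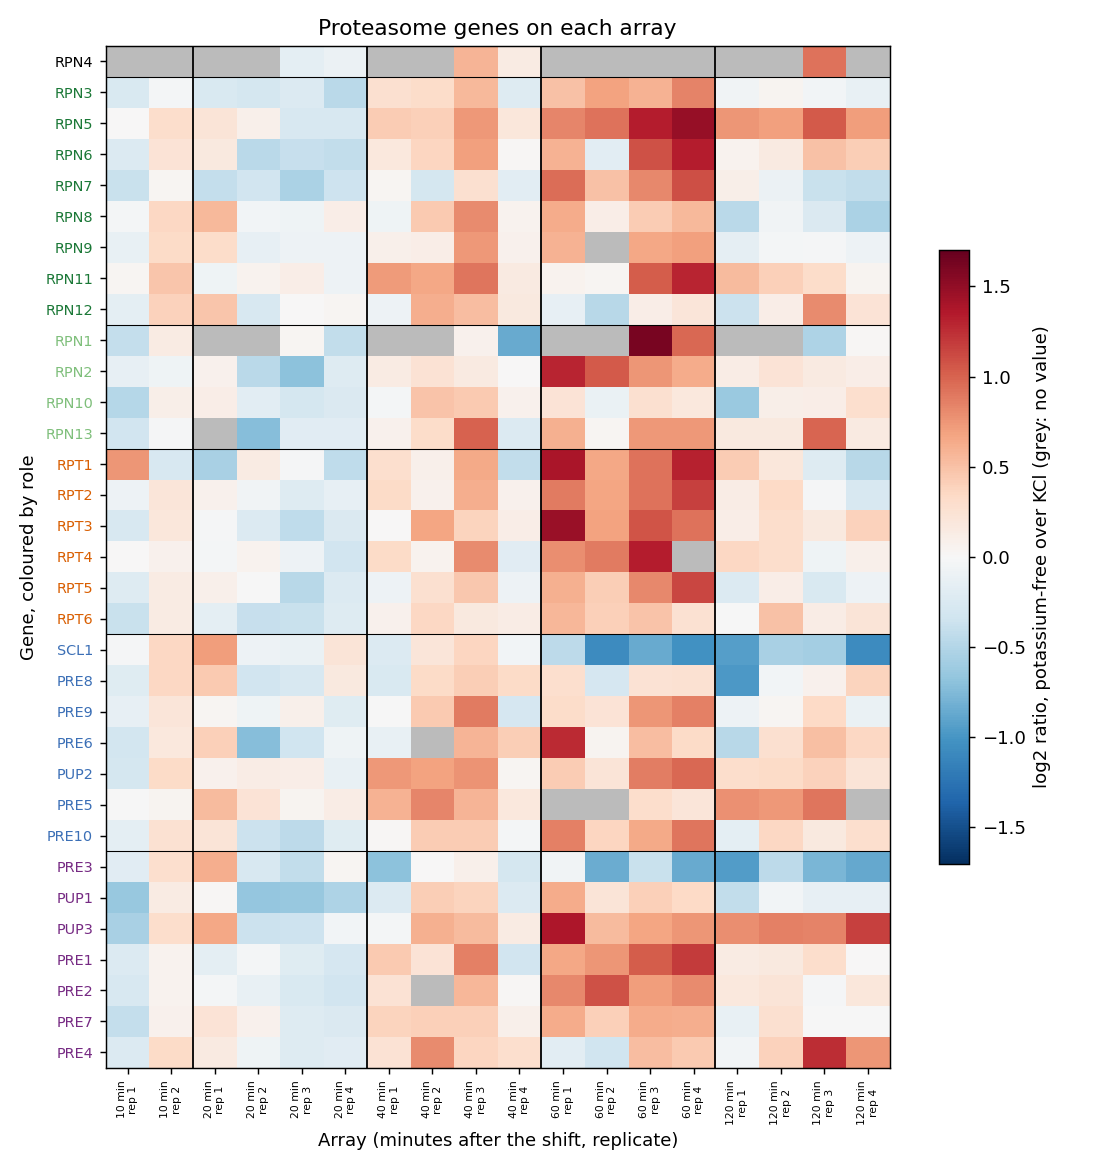
Log2 ratio (potassium-free over KCl) for each proteasome gene (rows, grouped by role) on each array (columns, grouped by minutes after the shift). Red is higher and blue lower in potassium-free cells, and grey marks a missing value. The block of red lies at 60 min, where SCL1 and PRE3 are blue, and RPN4 is grey on all but 5 arrays.

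The 6 ATPases of the base, which unfold substrates and drive them into the core, were all higher at 60 min, with a median of 0.97. RPT4 (YOR259C) had the highest mean of this ring. It was at 0.79, 0.88 and 1.34 on 3 arrays and had no value on the fourth, with a mean of 1.09 ± 0.19 (SE), a 2.12-fold higher level (adjusted p = 0.00319). All of its arrays thus lay well above 0. RPT1 was at 1.07 ± 0.19 (adjusted p = 0.00351), with arrays between 0.65 and 1.39. RPT3, whose C-terminal tail helps open the gate of the core, was at 1.03 ± 0.15 (adjusted p = 0.00187, the smallest of the proteasome genes). RPT2, another gate-opening ATPase, was at 0.91 and RPT5 at 0.74. RPT6 (YGL048C) had the lowest mean of the ring, at 0.57, 0.41, 0.49 and 0.26 on the 4 arrays. Its mean of 0.43 ± 0.15 was a 1.35-fold higher level (adjusted p = 0.0468). This call was narrow, and it was lost without array 1, 2 or 3 (adjusted p = 0.0663, 0.0506 and 0.0824) and with a replicate block (0.0566).

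In the lid, which holds the deubiquitinating activity, 5 of 8 genes were higher at 60 min and none lower, with a median of 0.65. RPN5 (YDL147W), a scaffold subunit of the lid, was at 0.84, 0.92, 1.34 and 1.48. Its arrays all lay above 0.8, and its mean was 1.14 ± 0.19 (adjusted p = 0.00299). RPN7 was at 0.84, RPN3 at 0.66 and RPN9 at 0.64, and each was above 0 on every array measured. RPN6, a lid subunit that also touches the core, was at 0.59, -0.18, 1.08 and 1.33, with a mean of 0.71 ± 0.25 (adjusted p = 0.0489). Its experiments differed, at 0.21 in A and 1.21 in B, and the call was lost without array 1 (0.52, adjusted p = 0.192) or array 4 (0.64, adjusted p = 0.0537).

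The other lid genes did not pass. RPN11, the deubiquitinase itself, stood at 0.07, 0.04, 1.02 and 1.29. Both arrays of experiment A were thus near 0 and both of experiment B near 1 (mean 0.605 ± 0.26, adjusted p = 0.0889). RPN8, the partner of Rpn11, was at 0.43 (adjusted p = 0.0607). RPN12 (YFR052W), the lowest of the lid, was at -0.14, -0.47, 0.11 and 0.21, on both sides of 0, with a mean of -0.07 ± 0.21 (adjusted p = 0.79).

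Of the base subunits without ATPase activity, 3 were tested at 60 min and 1 passed, with a median of 0.53. RPN2 (YIL075C), a large scaffold protein of the base, was at 1.29, 1.05, 0.76 and 0.63, and its mean of 0.93 ± 0.18 was a 1.91-fold higher level (adjusted p = 0.00463). The ubiquitin receptors RPN13 and RPN10 did not pass. RPN13 was at 0.53 ± 0.21 (adjusted p = 0.0706). RPN10 (YHR200W) was at 0.24, -0.12, 0.27 and 0.18, close to 0 throughout (mean 0.14 ± 0.18, adjusted p = 0.534). RPN1, the other large scaffold, had values on arrays 3 and 4 only, at 1.62 and 0.98, and was not tested.

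In the core particle 7 of 13 genes tested at 60 min were higher and 2 lower, with a median of 0.54. In the regulatory particle 12 of 17 were higher and none lower, with a median of 0.71. Among the alpha subunits, which form the outer rings and the gate, 3 of 6 were higher. PRE10 (YOR362C) was highest at 0.85, 0.37, 0.64 and 0.91, all above 0, with a mean of 0.69 ± 0.16 (adjusted p = 0.00942). PUP2 was at 0.62 and PRE9, the gate subunit that yeast can live without, at 0.54 (adjusted p = 0.0313 and 0.0392), and the call for PUP2 was lost without array 1 (0.57, adjusted p = 0.0518). Both genes differed between the experiments, PUP2 at 0.32 in A and 0.92 in B, and PRE9 at 0.28 in A and 0.81 in B. PRE6, at 0.54 ± 0.21, did not pass (adjusted p = 0.0705), and nor did PRE8, at 0.13 (adjusted p = 0.644). PRE5 had values of 0.29 and 0.20 on arrays 3 and 4 only.

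Among the beta subunits, which carry the proteolytic sites, 4 of 7 were higher. PRE1 (YER012W) was highest at 0.65, 0.76, 1.03 and 1.19, with a mean of 0.91 ± 0.17, a 1.87-fold higher level (adjusted p = 0.004). PRE2, the subunit with chymotrypsin-like activity, was at 0.85 ± 0.16, with arrays between 0.71 and 1.08 (adjusted p = 0.00399). PUP3 was at 0.83 and PRE7 at 0.57. PUP1, the subunit with trypsin-like activity, was at 0.40 ± 0.16 and did not pass (adjusted p = 0.0686). PRE4 was at -0.18, -0.34, 0.53 and 0.44, below 0 in experiment A and above 0 in experiment B (mean 0.11 ± 0.26, adjusted p = 0.738).

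SCL1 (YGL011C), an alpha subunit, ran against the other subunits. At 60 min it was at -0.45, -1.07, -0.86 and -1.03, with a mean of -0.85 ± 0.16, so that its ratio was 1.81-fold lower in potassium-free cells (adjusted p = 0.00446). At 120 min it was at -0.94, -0.55, -0.58 and -1.07 (mean -0.79 ± 0.16, adjusted p = 0.00873). All 8 arrays thus lay below -0.4. At 20 and 40 min its means were 0.18 and 0.07, with arrays on both sides of 0. Quantile normalization moved the value at 60 min to -0.53, which did not pass (adjusted p = 0.0504).

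PRE3 (YJL001W), the beta subunit with caspase-like activity, was the other gene called lower. At 60 min it was at -0.06, -0.85, -0.39 and -0.85, with a mean of -0.54 ± 0.17 (adjusted p = 0.0355). Array 1 was thus near 0 and the other three lower. This call was lost without array 2 (-0.34, adjusted p = 0.215) or array 4 (-0.42, adjusted p = 0.0762), with median centring (adjusted p = 0.065) and with the experiment as a random block (0.0521). At 120 min it was at -0.94, -0.45, -0.78 and -0.87, all below -0.4 (mean -0.76 ± 0.17, a 1.69-fold lower ratio, adjusted p = 0.0123).

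**Figure D2:**
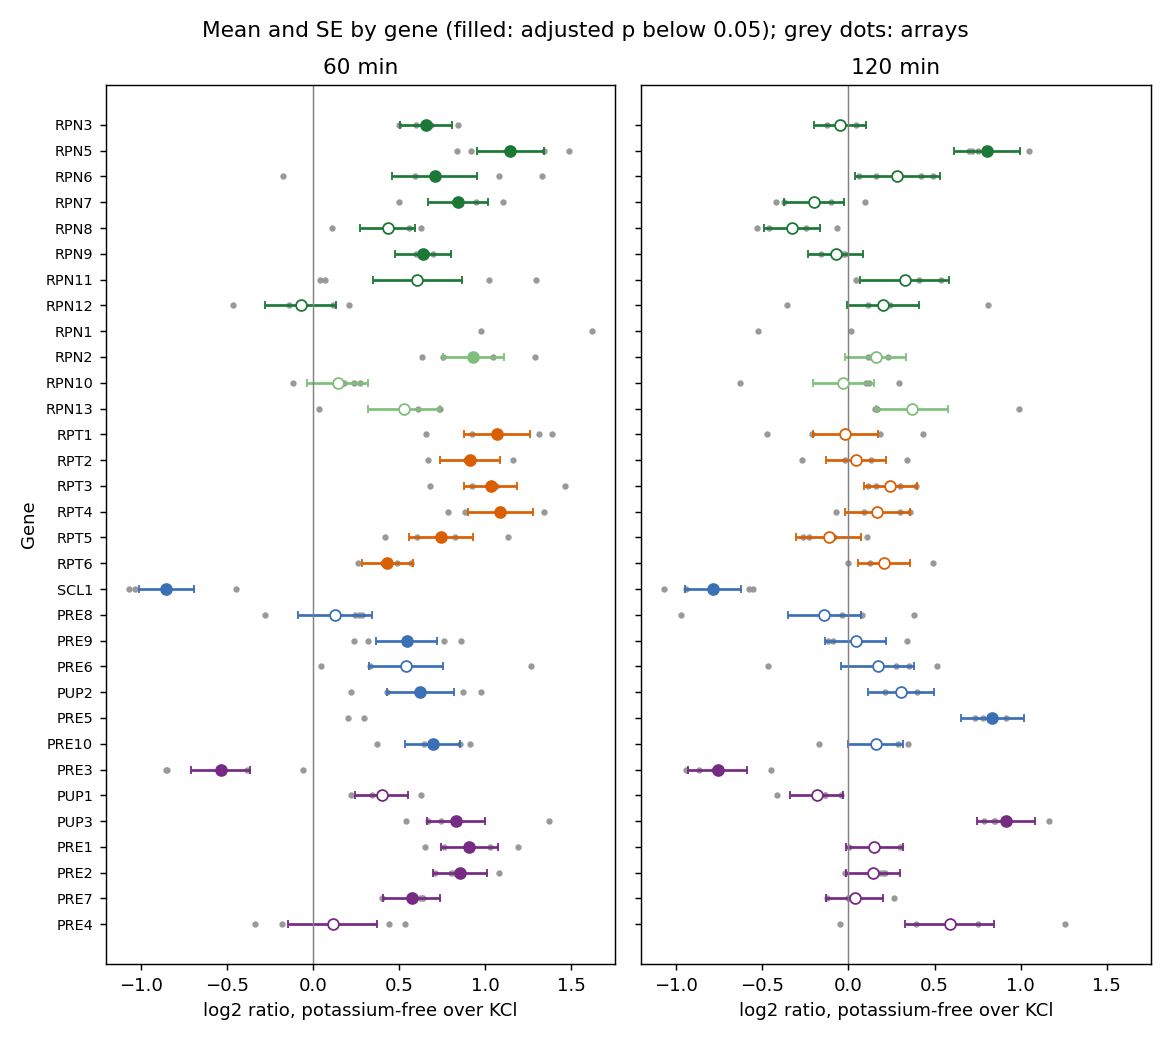
Log2 ratio (potassium-free over KCl) at 60 min (left) and 120 min (right) for each proteasome subunit gene. Grey dots are single arrays, circles are means over experiments, bars are SEs of the fit, and filled circles passed an adjusted p of 0.05. At 60 min 21 circles are filled, from SCL1 at -0.85 to RPN5 at 1.14, and at 120 min 5 are filled.

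The calls at 60 min depended on which samples were kept. Without experiment B 15 of the 21 calls were lost, but 12 of these kept a value within 1.5 times of the full one, such as RPT4 at 0.83 against 1.09 and SCL1 at -0.76 against -0.85. The other 3, RPN6, PUP2 and PRE9, were at 0.21, 0.32 and 0.28 without it. Without experiment A 6 calls were lost, with values 1.06 to 1.34 times apart from the full ones. When all arrays were scaled to the same spread, or quantile normalized, 10 of the 30 genes passed as higher, where 12.4% and 13% of all genes did, and the median was 0.40 and 0.46. RPN5, RPT1, RPT3 and PRE2 passed under each alternative run, including the loss of any array or experiment at 60 min.

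At 120 min few of these differences remained past the threshold. Of 31 genes tested 3 were higher and 2 lower, while 20.4% and 22% of all genes were, and the median was 0.15 against 0 for all genes. Of the 19 genes higher at 60 min, RPN5 and PUP3 were called again and 17 did not pass, whereas SCL1 and PRE3 were both lower again. RPN5 was at 0.75, 0.70, 1.05 and 0.72, with a mean of 0.80 ± 0.19 (adjusted p = 0.0157). PUP3 (YER094C) was at 0.79, 0.85, 0.85 and 1.16, and its mean of 0.91 ± 0.17 was a 1.88-fold higher level (adjusted p = 0.00568). PRE5 (YMR314W), untested at 60 min, was at 0.78, 0.73 and 0.91 on 3 arrays (mean 0.84 ± 0.18, adjusted p = 0.0139). Each of these 3 genes lay above 0.7 on every array measured, while the 6 ATPases ranged from -0.12 to 0.24 and none passed. RPN5 and PRE3 did not pass with scaled arrays (adjusted p = 0.0802 and 0.06005) or quantile normalization (0.0934 and 0.052). PRE5 did not pass with the latter (0.0514). All 5 calls were lost without experiment B of 120 min, with values 1.05 to 1.11 times smaller, and when 120 min was fitted alone, with the same values and fewer samples.

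The remaining genes at 120 min lay between RPN8 at -0.33 ± 0.16 (adjusted p = 0.139) and PRE4 at 0.59 ± 0.26 (adjusted p = 0.102). PRE4 was at -0.05, 0.39, 1.26 and 0.75, again lower in experiment A than in B. RPN7 was at -0.20, RPN11 at 0.33 and RPN13 at 0.37, and PUP1 was below 0 on all 4 arrays at a mean of -0.18. None of these 6 passed.

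The difference between 60 and 120 min was tested directly. The ratio was lower at 120 than at 60 min for 26 of 30 genes, with a median difference of -0.52, against -0.028 for all genes. RPT1 showed the widest difference, -1.09 ± 0.27, then RPN7 at -1.04 ± 0.24, while PUP3 and SCL1 differed by 0.08 and 0.07. The limma contrast called 0 of the 30, as it called 0% of all genes. Of the 30, 14 had an unadjusted p under 0.05, all lower at 120 min, where 9.34% of all genes had one and were lower, and the lowest adjusted p was 0.188. Other treatments of the arrays gave calls of lower genes. There were 10 with arrays paired the other way (6.68% of all genes) and 13 when single arrays counted as replicates (7.72%). A dye term gave 13 (7.18%) and the experiment as a random block 4 (2.01%). The dye-term fit also counted single arrays as replicates, so it is not a separate check. The other pairing averaged arrays of A with arrays of B, so the spread between A and B is not counted in it.

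**Figure D3:**
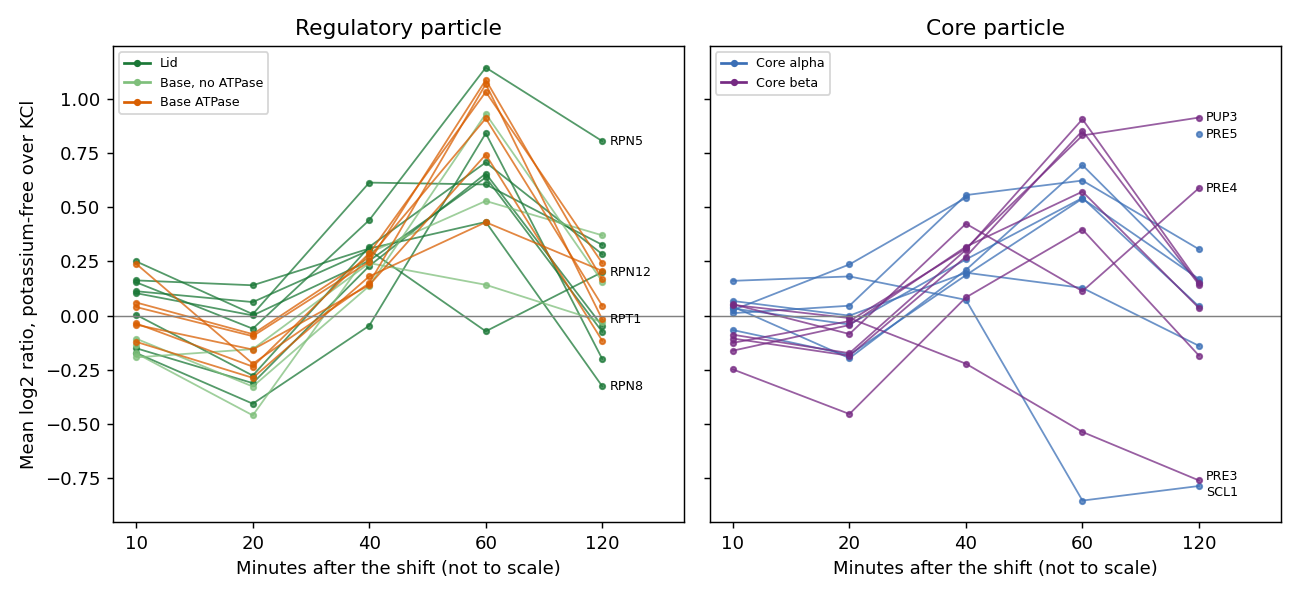
Mean log2 ratio (potassium-free over KCl) for each subunit gene (1 line per gene, coloured by role) at the 5 time points, spaced evenly and not to scale, for the regulatory particle (left) and the core particle (right). Most lines are highest at 60 min and nearer 0 at 120 min, while RPN5 and PUP3 are at 0.80 and 0.91 and SCL1 and PRE3 at -0.79 and -0.76.

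Before 60 min no proteasome gene passed the threshold. At 40 min 29 of 31 genes had a mean above 0, against 50.8% of all genes, and the median was 0.26. Single arrays moved this median, to 0.131 without array 3 and 0.41 without array 4. None was called by limma, where 5.23% of all genes were called higher and 3.7% lower, and 3 had an unadjusted p under 0.05, all higher, where 14.3% of all genes had one and were higher. These were RPN11 at 0.61 ± 0.26, PUP2 at 0.56 ± 0.19 and PRE5 at 0.54 ± 0.18 (adjusted p = 0.168, 0.113 and 0.114). With the experiment as a random block the same 3 passed (9.93% of all genes did as higher), and with the other pairing 5 did (13.5%), among them RPN5 and PRE4. These counts are near the shares of all genes. Array 3 of 40 min stood highest, with all 33 genes above 0 and a median of 0.55, and array 4 lowest, with a median of 0.04. From 40 to 60 min the ratio was higher for 23 of 30 genes, with a median difference of 0.37, against -0.106 for all genes. This contrast called 0 of the 30 and 0% of all genes in limma (10 had an unadjusted p under 0.05, SCL1 the one of them that was lower, where 7.78% of all genes had one as higher and 13.3% as lower). The alternatives named above called 2 to 9 as higher, against 2.79% to 6.41% of all genes, and SCL1 as lower, against 7.18% to 13.9%.

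At 20 min 7 of 31 genes had a mean above 0, where 51.6% of all genes did, and the median was -0.09 against 0.01. The median was -0.18 without array 1 and -0.04 without array 2, and it was -0.001 in experiment A and -0.21 in experiment B. None was called, with 0.459% of all genes called higher and 0.0229% lower, and 2 had an unadjusted p under 0.05, both lower, where 2.77% of all genes had one and were lower. These were PUP1 at 0.01, -0.66, -0.65 and -0.52 (mean -0.45 ± 0.16, adjusted p = 0.599) and RPN7 at -0.41, -0.33, -0.53 and -0.35 (mean -0.41 ± 0.17, adjusted p = 0.793). All 4 arrays of RPN7 were thus below 0, and 3 of those of PUP1. RPN13 had the lowest mean, -0.46, and PRE5 the highest, 0.24. With arrays scaled to the same spread PUP1 and RPN7 passed as lower, and with quantile normalization RPN3 and RPN13 passed too, where 3.26% and 4.36% of all genes did. Both treatments widened the values at 20 min: PUP1 was then at -0.92 and -1.05, against -0.45 before.

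At 10 min, with 1 experiment, 17 of 32 genes had a mean above 0, the median was 0.0075, and none of the 32 had an unadjusted p under 0.05. None was called in limma, as 0% of all genes were in either direction. The dye-swapped arrays differed: with potassium-free RNA in Cy3 the median of the proteasome genes was -0.225 and 4 of 32 lay above 0, and with Cy5 it was 0.189 and 28 did. The medians of all genes on these arrays were -0.115 and 0.099. RPT1 ran the opposite way, at 0.75 and -0.27. One of these arrays carries the same dye name for both channels in its labels, and its title was followed.

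**Figure D4:**
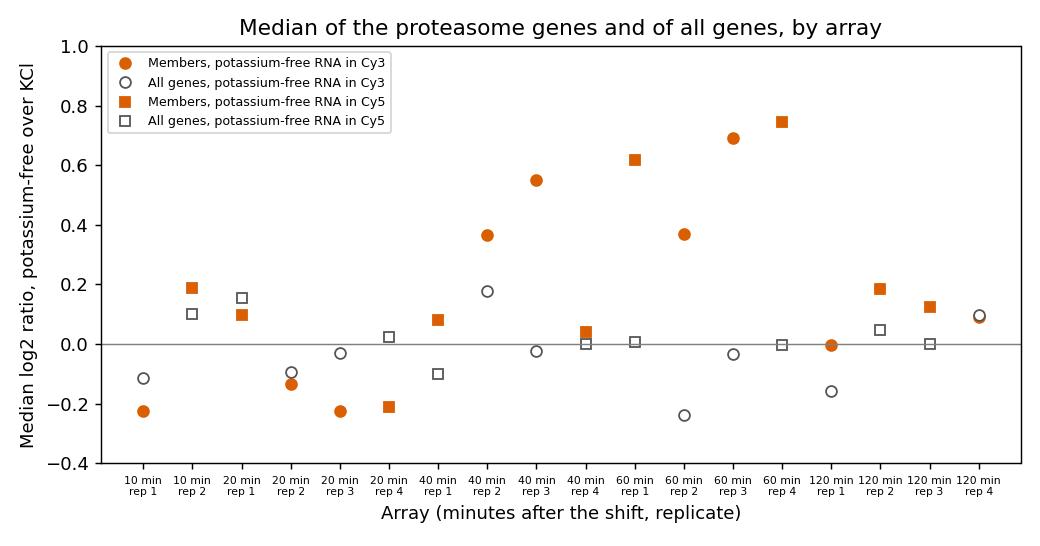
Median log2 ratio of the proteasome genes (filled) and of all genes (open) on each of the 18 arrays, with circles for potassium-free RNA in Cy3 and squares for Cy5. At 60 min the proteasome genes lie at 0.37 to 0.74 on all 4 arrays, above the medians of all genes, which lie at -0.24 to 0.01.

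Placing the genes among all values of the same array removes the array's own centre and spread. At 60 min the median of the proteasome genes stood at the 73.2 to 79.6 percentile of its array. At 120 min it stood at the 49.7 to 58.3 percentile, so the arrays of 60 and 120 min did not overlap. At 40 min it stood at the 62.3, 62.5, 81.6 and 53.7 percentile. The 81.6 lay above every array of 60 min, and the 53.7 within the range of 120 min, so 40 min overlapped with both. At 20 min the median stood at the 45.2, 44.5, 25.5 and 19.2 percentile, so that each array of 20 min lay below each of 40 min. Arrays of a time point include dye swaps of the same experiment, so they are not separate replicates. These separations were not tested, and no other set of genes is given for comparison.

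RPN4 (YDL020C) had values on 5 of the 18 arrays and was tested at no time point. At 20 min it was at -0.17 and -0.10 and at 40 min at 0.57 and 0.15, on arrays 3 and 4 each time. At 120 min it was at 0.93 on array 3, and at 10 and 60 min no array gave a value. The lower values were thus at 20 min, but with 1 experiment per time point the change of this regulator over the time course was not measured. Genes that act on Rpn4 were also thinly measured, with 3 of 7 tested at 60 min. RAD6, the ubiquitin-conjugating enzyme that takes part in the breakdown of Rpn4, was at 0.34, 0.88, 0.19 and 0.80 and passed (mean 0.55 ± 0.15, adjusted p = 0.0205), but not without array 2 or 4, nor with scaled arrays (0.125) or quantile normalization (0.125). None of these genes passed at the other times.

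Among 15 genes for assembly and accessory factors of the proteasome, the median at 60 min was 0.27, and 3 of 11 tested were higher and 1 lower. This is near the 21.7% of all genes that were higher. HUL5, a ubiquitin ligase bound to the proteasome, was at 1.05 ± 0.25, UBP6, a deubiquitinase of the base, at 0.85 ± 0.16, and UMP1, a chaperone of core assembly, at 0.61 ± 0.16 (adjusted p = 0.0116, 0.00484 and 0.0182). UMP1 did not pass with scaled arrays (adjusted p = 0.1003) or quantile normalization (0.0822). PBA1, a chaperone of the alpha ring, was lower, at -0.57, -1.45, -0.92 and -0.84 (mean -0.94 ± 0.17, adjusted p = 0.00356), and again at 120 min at -0.83. At 120 min 4 of 13 were higher, POC4 at 1.39, HUL5 at 1.11, the base chaperone NAS2 at 0.83 and UBP6 at 0.53. Of all genes, 20.4% were higher at that time. POC4, another chaperone of the alpha ring, was at 1.33, 1.43, 1.66 and 1.16 there, and the call for UBP6 was lost without array 2. NAS2 and UBP6 did not pass with scaled arrays (adjusted p = 0.0674 and 0.103) or quantile normalization (0.0882 and 0.127). None passed at 10, 20 or 40 min.

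Of 18 genes for ubiquitin, its conjugation and the delivery of substrates, 13 of 17 tested were higher at 60 min and 1 lower, with a median of 0.87. Of all genes tested then, 21.7% were higher and 25.1% lower. UBI4, the polyubiquitin gene that yeast needs under stress, was at 1.68, 2.48, 2.49 and 2.95, and its mean of 2.40 ± 0.24 was a 5.28-fold higher level (adjusted p = 0.000622). UFD1 and NPL4, partners of the unfolding ATPase Cdc48, were at 2.18 ± 0.29 and 1.48 ± 0.17 (adjusted p = 0.00132 and 0.00101). The ubiquitin ligase gene RSP5 was at 1.84 ± 0.23 and the conjugating enzyme gene UBC5 at 1.22 ± 0.30 (adjusted p = 0.00116 and 0.0228). UBI4 and RSP5 had passed at 40 min, at 1.58 ± 0.24 and 1.22 ± 0.23 (adjusted p = 0.0144 and 0.0252). They were 2 of 16 tested then, where 5.23% of all genes were higher, and no proteasome gene passed. RSP5 was already at 1.14 and 1.00 on the arrays of 10 min. At 20 min its mean was 0.77 ± 0.23, which did not pass (adjusted p = 0.437). UBI4 had means of 0.10 and 0.28 at these times. SAN1, a ligase of nuclear quality control, was the one called lower, at 40 min (-0.81 ± 0.16, adjusted p = 0.0279, lost without array 2 or 3) and at 60 min (-0.62, a value named after it was seen).

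At 120 min 5 of these 17 genes were higher, with a median of 0.43: UBI4 at 1.45, RSP5 at 1.28, UBC5 at 1.02, NPL4 at 0.79 and UBC4 at 0.50. Of all genes, 20.4% were higher at that time. UBC5 did not pass without array 4 or with a replicate block (adjusted p = 0.064), nor UBC4 without array 2 or 3 or under the random block (0.0888). Neither passed with scaled arrays or quantile normalization, and NPL4 did not pass with the latter (0.0503). UBC4 and UBC5 have near-identical sequences, as does UBI4 with the other ubiquitin genes, so cross-hybridization makes their single values uncertain. None of the 18 passed at 10 or 20 min.

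Of the 30 proteasome genes tested at 20, 40, 60 and 120 min, 3 passed the F test for any difference between these times: RPT3, SCL1 and RPN7 (adjusted p = 0.0364, 0.0366 and 0.0417), while 14.1% of all genes did. RPN7 and RPT3 had their highest means at 60 min, and SCL1 its lowest. This count moved between 0 and 20 with the treatment of the arrays. It was 19, 20, 12 and 20 with the other pairing, single arrays as replicates, the random block and the dye term on single arrays. In these runs 47.3%, 50.5%, 36.9% and 49.5% of all genes passed.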

How the data were processed

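Per the labels' protocols, oligo(dT)-primed cDNA from 8 µg of RNA, from cells at 28 °C, was labelled indirectly, and spots under 120 µm or under 100 units were dropped. The deposited values are ratios taken as log2, with many genes missing on each array. How background was corrected and arrays normalized is not given in the sources. All pairs of arrays correlated above 0, but the lowest r was 0.0416, too weak to settle that every array had been turned the same way. The ratio cannot check the strain, since genes deleted in BY4741 are missing from both cultures.

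Values at a time point with too few arrays were left out, dye-swap pairs were averaged to 9 experiments, and limma 3.58.1 in R 4.3.3 fitted a mean per time point with a shared spread (prior degrees of freedom 3.49, residual 4), two-sided at 0.05. The single experiment of 10 min borrows this spread. The procedure was also run on simulated data with independent noise. These data held no dye, array or experiment effects and no spread that widens with time, so the run cannot check those. Of 6212 genes, 439 had no value. All 33 IDs matched a RefSeq locus tag of R64, used for names only.

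Members, lists and tests were chosen with earlier results of these data known. Full values are given for RPN4, for genes called lower, and for the highest and lowest at 60 min in each role, and up to 5 called genes per list and time. Of 41 listed pathway genes 40 were in the table. Promoter motifs were planned and not analysed here.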

Additional observations from a re-analysis of the deposited data

Results flagged for a closer look

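In 12 of 121 groups of 4 arrays, 1 array of a proteasome gene stood apart from the others by more than Dixon's critical value. Chance does so in about 1 in 20 groups. All values are log2 ratios.

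At 20 min array 1 stood above the others for RPN6, at 0.17 against -0.46 to -0.39, and for RPN9, at 0.31 against -0.14 to -0.09. At 40 min array 1 was low for PRE8, at -0.26 against 0.32 to 0.41. Array 3 was high there for RPN9, at 0.74 against 0.07 to 0.11. Array 4 was low for PUP2, at 0.039 against 0.68 to 0.76, and for PRE7, at 0.081 against 0.38 to 0.41.

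At 60 min array 2 was low for PRE8, at -0.28 against 0.24 to 0.29, and for PRE7, at 0.40 against 0.62 to 0.64. At 120 min array 3 was high for RPN5, at 1.05 against 0.70 to 0.75, and for RPN13, at 0.99 against 0.16 to 0.17, and low for PRE2, at -0.022 against 0.18 to 0.21. Array 4 was high for PUP3, at 1.16 against 0.79 to 0.85. The calls for RPN5 and PUP3 at 120 min and for PRE7 at 60 min were kept without any single array. With scaled arrays RPN5 and PRE7 did not pass (adjusted p = 0.0802 and 0.188 in limma), nor with quantile normalization (0.0934 and 0.153).

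RPN7, RPT3 and SCL1 differed between the times from 20 to 120 min by the moderated F test of limma (adjusted p = 0.0417, 0.0364 and 0.0366). These were 3 of 30 proteasome genes tested, where 14.1% of all genes passed, so the count does not stand out. None of the 3 passed with the replicate block, scaled arrays or quantile normalization, nor did SCL1 with median centring.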

How the results depend on the processing

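Counts are of proteasome genes, and no value changed sign past the threshold. With arrays scaled to the same spread and with quantile normalization, 2 and 4 were lower at 20 min (3.26% and 4.36% of all genes). At 60 min 10 and 10 were higher (12.4% and 13%) and 1 and 0 lower (16.7% and 14.8%). At 120 min 1 and 1 were lower (12.6% and 13.9%), and quantile normalization left 1 higher (11%). Medians were then 0.40 and 0.46 at 60 min, and -0.25 at 20 min after quantile normalization. Fitted alone, 60 min had 10 higher and 1 lower (15.2% and 17.5% of all genes), and 120 min 0 and 0 (7.76% and 6.89%). Median centring and the random block each left 1 lower at 60 min (23% and 28.7% of all genes). The next counts are, in order, for arrays paired the other way, single arrays as replicates, the random block and the dye term. The dye-term fit also counted single arrays as replicates. At 40 min 5, 4, 3 and 4 were higher (13.5%, 14.5%, 9.93% and 13.8% of all genes). At 60 than at 40 min 6, 9, 2 and 7 were higher (6.21%, 6.41%, 2.79% and 5.66% of all genes). In each of these runs 1 was lower (13.9%, 12.2%, 7.18% and 11.7%). At 120 than at 60 min 10, 13, 4 and 13 were lower (6.68%, 7.72%, 2.01% and 7.18%). The F test passed 19, 20, 12 and 20 (47.3%, 50.5%, 36.9% and 49.5%). The F test passed 9 with values required on all arrays (25.2% of all genes) and 0 after scaling or quantile normalization (4.07% and 5.36%). Leaving out an array or experiment gave 6 to 22 higher (15 without experiment A, 6 without B) and 0 to 2 lower at 60 min, 0 to 4 higher and 0 to 2 lower at 120 min, 0 to 5 by the F test and medians at 120 min of 0.044 without array 2 and 0.068 without array 3. The shares of all genes were not taken for the runs that left out an array or experiment, so those counts have nothing to be set against. Without an experiment or with a time fitted alone there are fewer samples, and scaling and quantile normalization change the values themselves. Otherwise the cause was not tested.

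The replicate block, by number, kept the counts at 19 and 2 at 60 min (21.8% and 25.3% of all genes). At 120 min they stayed at 3 and 2 (21% and 21.8%). With this block RPT6 did not pass at 60 min, and 0 passed the F test (10.9% of all genes). The fit treated same-lettered experiments of different times as independent. Their deviations correlated at -0.181 to 0.434 over 6 pairs of times, highest for 60 and 120 min, so this may not hold for that pair. The consensus correlation within experiments was 0.252 as paired here and -0.236 for the other pairs. The scalings moved the median of all genes by at most 0.061. The 60 against 40 min contrast, and a fit that kept values below the array minimum (18 higher at 60 min), were chosen after seeing the data. Of 10 pathway calls named at 120 min, 4 were lost with scaled arrays, 5 with quantile normalization and all 10 without experiment B; of 10 at 60 min, 2, 2 and 4 were, and the 3 at 40 min were lost without either experiment. RPN4 at 120 min, on 1 array, was 0.55 and 0.56 after scaling and quantile normalization.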

Other observations

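The genes next to proteasome genes on the chromosome, 64 in all, were taken from the RefSeq gene order. Of 43 tested at 60 min 11 were higher and 12 lower, near the shares of all genes (21.7% and 25.1%). Their median was -0.085, close to the -0.089 of all genes. The neighbours named here were picked after their values were seen. Beside genes called higher they lay on both sides of 0 at 60 min, such as NOP14 beside RPN5 at -2.12 and SER33 beside RPN2 at 3.15. Beside SCL1, the sterol synthesis gene ERG4 was at -1.38. Beside PRE3, OST1, a subunit of oligosaccharyltransferase, was at -0.77 and the vacuolar transporter gene AVT1 at -1.04. ERG4, OST1 and AVT1 were past the threshold at 60 min (adjusted p = 0.00272, 0.00805 and 0.00302 in limma). MPO1, the other neighbour of SCL1, was not tested at 60 min and was at 1.14 at 120 min (adjusted p = 0.0409).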
